A study of Homo sapiens with 6 samples.

Results

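The 37 genes described here encode adaptors, linkers and kinases of focal adhesions. They were taken by symbol from the GENCODE v29 annotation, and all 37 were among the 18768 genes of the deposited table, with 423 of its 98886 transcripts. They were chosen by symbol, with earlier results of these data known. The libraries came from HCT116, an established human colorectal carcinoma cell line, grown in DMEM with serum. The 3 siRNA-NC libraries came from control cells given a negative control siRNA, and the 3 si-AC010789.1 libraries came from cells given an siRNA against AC010789.1, a long noncoding RNA that the study links to colorectal cancer. The study describes the libraries of a group as biological repeats. It reports large differences within the group and proposes different cell generations as a possible reason. The time of harvest was not given in the sources used here. One siRNA label stands for the whole treated group. The study checked the knockdown in the sequenced samples by a measurement of its own, whereas the targeted RNA was not analysed here, so no size of the knockdown is given.

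Focal adhesions are the sites where a cell holds on to the matrix outside it. Integrin receptors cross the membrane there, and talin and kindlin bind their tails from inside and switch them to the binding state. Vinculin, alpha-actinin and filamin then tie the site to actin filaments. Adaptors such as paxillin and p130Cas gather around the kinases FAK and SRC, which signal to small GTPases that set how fast the site is built and taken down. In epithelial tumours this machinery is known for its part in spreading and migration, and the study examined the effect of the knockdown on both migration and invasion.

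The libraries held between 11277222 and 13443866 counts, and 3 counts, the floor used for absence, were worth 0.223 to 0.266 CPM, counts scaled to a library total of 1000000. The labelled cell type was checked against its markers. Of 20 epithelial and colorectal markers looked up by symbol, 10 matched no row of the table as used here and 4 more averaged under 1 CPM, among them CDH1, E-cadherin, at 0.675 to 1.05 CPM. The keratin genes KRT8 and KRT18 stood at 444 to 850 and 351 to 535 CPM, and VIM, the mesenchymal filament vimentin, at 659 to 915 CPM. The epithelial list summed to 1122 to 1351 CPM in siRNA-NC and 888 to 1159 CPM in si-AC010789.1, and the mesenchymal list to 880 to 1023 and 761 to 933 CPM, whereas the 6 blood cell markers summed to at most 1.73 CPM. KRT8 and KRT18 made up most of the epithelial sum and VIM most of the mesenchymal sum. Of the other epithelial markers, EPCAM stood at 3.10 to 5.59 CPM, CLDN7 at 19.0 to 26.4 CPM and ELF3 at 59.4 to 91.3 CPM. CLDN4 had 25.7, 22.5 and 24.5 CPM in siRNA-NC and 28.9, 0.32 and 1.78 CPM in si-AC010789.1. Of 12 mesenchymal markers, 3 matched no row and 1 more averaged under 1 CPM. COL1A1 stood at 37.8 to 48.0 CPM, FN1 at 25.3 to 37.1 CPM and PDGFRB at 16.4 to 19.0 CPM, while COL3A1, DCN, TWIST1 and ACTA2 reached at most 8.86 CPM. The intestinal genes CDH17, CLDN3 and LGALS4 reached at most 0.349 CPM in any library, so the colorectal label rests on few of its defining genes here, and the part of this in the results below was not tested.

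The level of each gene per transcript length was compared first, because longer transcripts give more counts. Length-scaled level here is the count of each transcript divided by its length, summed per gene and scaled to 1000000 over the table. ACTN4, the crosslinker alpha-actinin-4, and FLNA, the actin crosslinker filamin A, stood highest. ACTN4 had length-scaled levels of 843, 913 and 818 in the siRNA-NC libraries and 766, 747 and 841 in the si-AC010789.1 libraries. FLNA had 828, 853 and 756 against 739, 833 and 780, so that the order of this pair was not resolved by the spread between libraries. VCL, vinculin, followed at 324 to 376, and ACTN1, alpha-actinin-1, at 235 to 269. These 4 genes did not overlap with any lower member except that CSRP1, a LIM protein of actin bundles, reached from 128 to 285 and so crossed ACTN1. A broad middle of 26 genes from LIMS1 to TGFB1I1 had means between 28.4 and 157, and each overlapped with its neighbour in the order. NEDD9 at 19.8, SRC at 17.9, LPP at 15.3, PARVB at 10.9 and FERMT1 at 9.71 closed the list, above TLN2, talin-2, which averaged 0.733. The PARVB mean was raised by replicate 3 of si-AC010789.1, at 20.1 against 8.13 to 9.96 in the other libraries, though its 18.6 CPM there was the lowest. Length-scaled levels depend on which transcript the counts were assigned to. TLN1, the talin of most tissues, stood 51.2 to 116 times higher than TLN2 in each library on this scale.

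**Figure D1:**
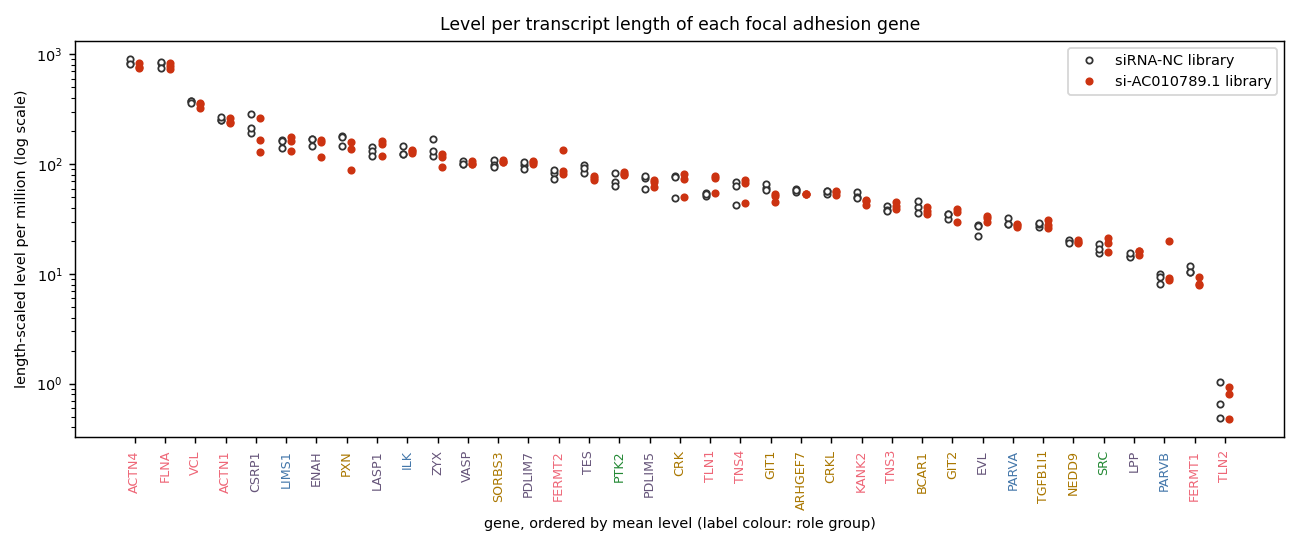
Length-scaled level (log scale) of the 37 focal adhesion genes, ordered by mean; each open point is 1 siRNA-NC library and each filled point 1 si-AC010789.1 library, and label colours mark the 5 role groups. ACTN4 and FLNA lie at 739 to 913, TLN2 near or under 1, and in most genes the points of both groups intermingle.

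Knockdown libraries were then compared with control libraries gene by gene. All 37 genes passed the filter on low counts and none had an adjusted p under 0.05 by edgeR's quasi-likelihood test, while 0.944% of the 13764 genes tested did; the lowest adjusted p among the members was 0.0712, for TES. At an unadjusted p under 0.05, 6 of 37 genes (16.2%) were lower in si-AC010789.1, namely TES, FERMT1, ARHGEF7, ACTN4, VCL and KANK2, and 0 were higher. Over all genes 8.91% were lower and 8.25% higher at that threshold. No member met the study's criteria of p under 0.05 with an absolute log2 fold change over 1, against 0.777% of all genes. The study applied these criteria to the output of Cuffdiff, another program. Its discussion also says that genes differing significantly within a group were left out, a step not repeated here. Among its called genes it reported enrichment of terms for cell migration and the cell-substrate junction, which was not tested here. DESeq2 called 2 of the 36 members to which it gave an adjusted p, TES (adjusted p = 0.0117) and FERMT1 (adjusted p = 0.0435), both lower, with 5.04% of all genes called. The 3 si-AC010789.1 libraries lay wholly below the 3 siRNA-NC libraries in 8 genes, the same 6 with ZYX and PARVA, and wholly above in 1, EVL; the shares over all genes were 12.9% and 12.2%. The median log2 fold change of the members was -0.0077 beside -0.00059 for all genes, with 17 members above 0 and 20 below. The exact two-sided permutation test of 3 libraries against 3 cannot give a p under 0.1, and it gave that smallest value for each of the 9 genes whose groups lay apart.

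**Figure D2:**
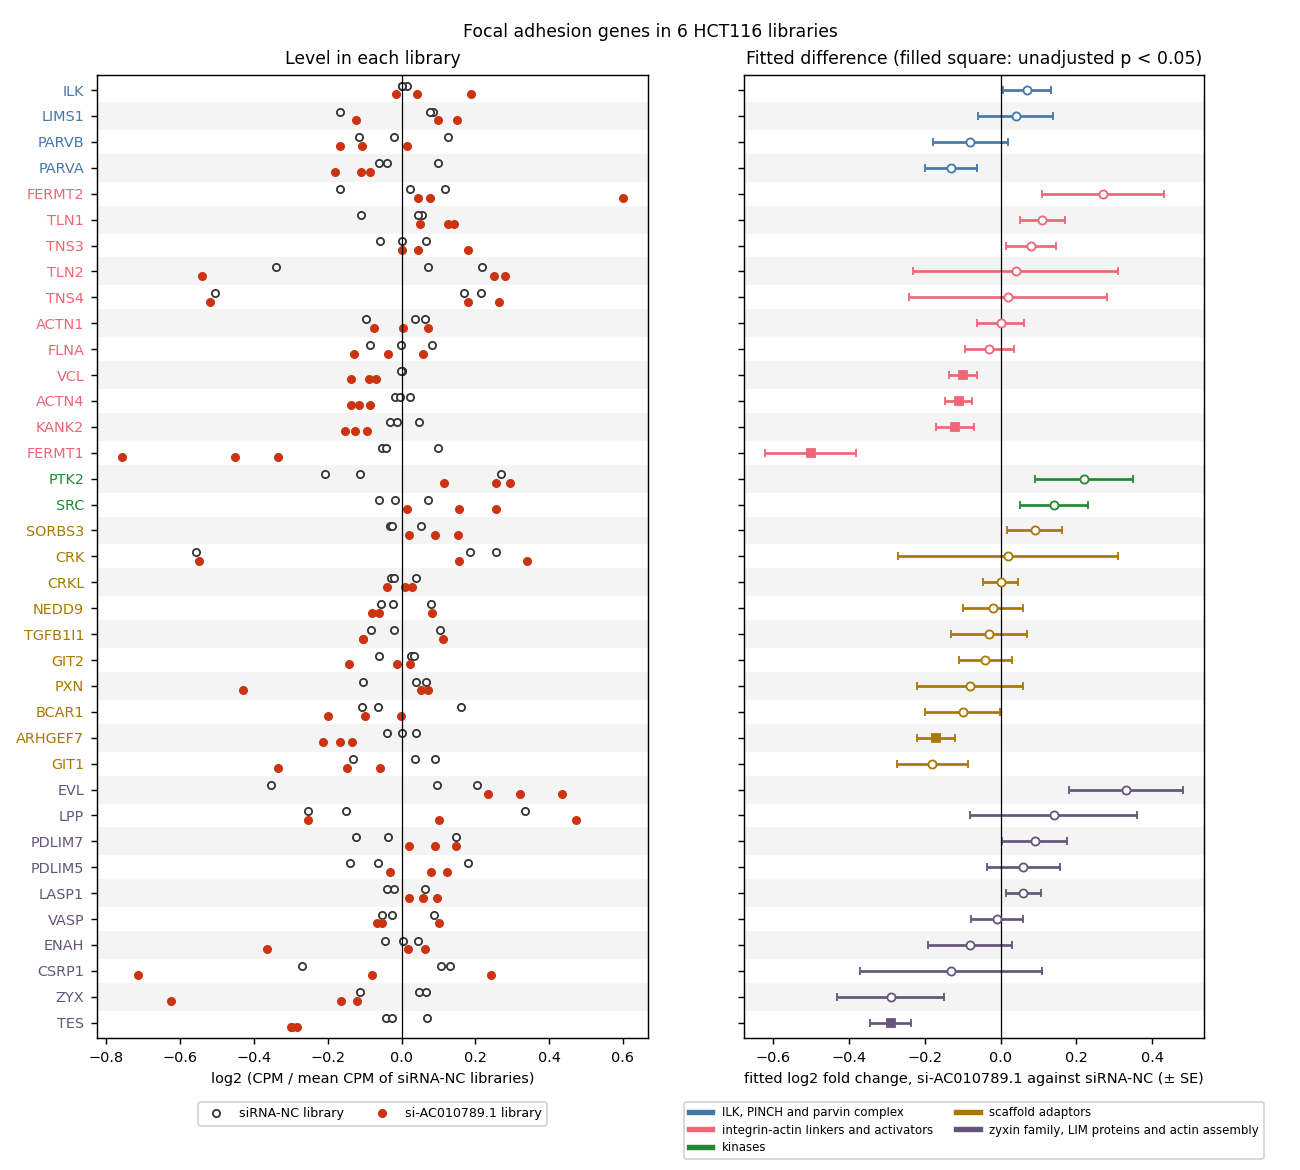
Left, log2 of each library's CPM over the siRNA-NC mean for the 37 genes, open points siRNA-NC and filled points si-AC010789.1; right, the fitted log2 fold change with its SE, filled squares marking unadjusted p under 0.05. The 6 filled squares all lie left of 0, from -0.50 for FERMT1 to -0.10 for VCL.

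The linkers and activators that join integrins to actin were 11 genes, and 4 of them (36.4%) had lower values at an unadjusted p under 0.05, beside 8.91% of all genes. In the other role groups, a division made for this report, that share was 0.0% to 10.0%. The median log2 fold change of the linkers was 0.00018, with 6 of the 11 above 0. No share was tested. FERMT1, kindlin-1, is the kindlin of epithelial cells and lies at chr20:6074845-6123544 (GRCh38, minus strand). It stood at 26.9, 29.9 and 27.1 CPM in siRNA-NC and at 20.4, 16.5 and 22.1 CPM in si-AC010789.1. The groups did not overlap, and the means of 27.9 ± 1.67 and 19.7 ± 2.86 CPM (SD, n = 3) gave the most negative difference of all members, a log2 fold change of -0.50 ± 0.12 (SE; adjusted p = 0.123 by edgeR's quasi-likelihood test). FERMT2, kindlin-2, the broadly expressed kindlin, had 130, 139 and 114 CPM in siRNA-NC and 135, 194 and 132 CPM in si-AC010789.1. The groups overlapped, and its log2 fold change of 0.27 ± 0.16 became 0.064 without replicate 2 of si-AC010789.1, the same library that was lowest for FERMT1. The log2 ratio of FERMT1 to FERMT2 in CPM lay between -2.28 and -2.07 in siRNA-NC and between -3.55 and -2.57 in si-AC010789.1, a change of -0.76 that was -0.46 without replicate 2 of si-AC010789.1. Among 11 ratios of related members, a comparison added after the values were seen, this was 1 of 3 whose groups did not overlap, each with an exact permutation p = 0.1 and an adjusted p of 0.367.

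VCL, vinculin (chr10:73995193-74121363, plus strand), strengthens the talin to actin link under force. Its levels were 1060, 1060 and 1057 CPM in siRNA-NC and 1010, 996 and 963 CPM in si-AC010789.1. The control libraries agreed within an SD of 1.45 CPM and every knockdown library lay below them, a log2 fold change of -0.10 ± 0.037 (adjusted p = 0.252 by edgeR's quasi-likelihood test). VCL overlaps AP3M1 on the opposite strand, which had 12643 counts over the 6 libraries, and counting by strand was not stated, so the source of reads in the shared stretch is uncertain. ACTN4 (chr19:38647649-38731583, plus strand) stood at 1121, 1090 and 1100 CPM against 1003, 1019 and 1041 CPM. These groups were also apart, and the fitted log2 difference was -0.11 ± 0.036 (adjusted p = 0.202 by edgeR's quasi-likelihood test). KANK2, which binds talin and connects adhesions with the microtubule cortex, lies at chr19:11164267-11197791 (minus strand). It had 103, 98.9 and 97.5 CPM in siRNA-NC and 91.3, 89.6 and 93.4 CPM in si-AC010789.1, again without overlap. Its log2 fold change was -0.12 ± 0.05 (adjusted p = 0.275 by edgeR's quasi-likelihood test).

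The other linkers showed overlapping groups. ACTN1 had 373, 409 and 417 CPM against 379, 400 and 419 CPM, and its means were both 399 CPM. FLNA had 2411, 2558 and 2275 CPM against 2210, 2515 and 2354 CPM, a log2 fold change of -0.03 ± 0.065. TLN1, which overlaps CREB3 on the other strand, had a log2 fold change of 0.11 ± 0.059 and TLN2 one of 0.04 ± 0.27, the latter on 30 to 59 counts per library. TNS3, a tensin that caps actin and binds integrin tails, had 0.08 ± 0.065. TNS4, the short tensin without the actin-binding part, had 0.02 ± 0.26 with 122, 118 and 74.0 CPM in siRNA-NC and 126, 73.3 and 119 CPM in si-AC010789.1. One library of each group thus stood well under the others for TNS4, replicate 3 in the control and replicate 2 in the knockdown.

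ILK, PINCH1 (LIMS1) and the parvins form a stable complex that joins kindlin and integrin tails to actin. None of its 4 genes had an unadjusted p under 0.05, beside 8.25% of all genes higher and 8.91% lower. ILK, the pseudokinase at its centre, stood at 102, 101 and 101 CPM in siRNA-NC and at 115, 104 and 100 CPM in si-AC010789.1 (log2 fold change 0.07 ± 0.063), and it overlaps TAF10 on the other strand. LIMS1, which shares near-identical sequence with LIMS3 and LIMS4 so that its counts are uncertain, gave 0.04 ± 0.099, and PARVB, beta-parvin, -0.08 ± 0.099. PARVA, alpha-parvin, had 65.8, 73.5 and 66.9 CPM in siRNA-NC and 64.7, 60.6 and 63.6 CPM in si-AC010789.1. Its groups were apart by a margin of about 1 CPM, and the fitted log2 difference was -0.13 ± 0.068 (adjusted p = 0.407 by edgeR's quasi-likelihood test), or -0.076 without replicate 2 of siRNA-NC.

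The kinases were both higher on average with overlapping groups. PTK2, focal adhesion kinase (FAK), autophosphorylates on integrin engagement and recruits SRC. It stood at 84.5, 79.0 and 110 CPM in siRNA-NC and at 109, 98.8 and 112 CPM in si-AC010789.1. Replicate 3 of siRNA-NC reached the level of the knockdown libraries, and the log2 fold change was 0.22 ± 0.13, with 0.38 when that library was left out and 0.12 when replicate 2 of siRNA-NC was (all libraries, adjusted p = 0.449 by edgeR's quasi-likelihood test). SRC had 32.5, 29.6 and 30.5 CPM against 36.9, 34.4 and 31.2 CPM, a log2 fold change of 0.14 ± 0.09.

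Of the 10 scaffold adaptors, 8 had a log2 fold change below 0, beside 6897 of all 13764 genes tested. At an unadjusted p under 0.05, 1 of the 10 (10.0%) was lower, beside 8.91% of all genes. This was ARHGEF7, beta-PIX, an exchange factor for RAC1 and CDC42 that works with the GIT proteins (chr13:111114559-111305737, plus strand). It had 112, 109 and 115 CPM in siRNA-NC and 99.7, 96.6 and 102 CPM in si-AC010789.1. The groups did not overlap and the log2 fold change was -0.17 ± 0.05 (adjusted p = 0.164 by edgeR's quasi-likelihood test). GIT1, an ARF GTPase-activating protein that binds paxillin and beta-PIX, had 102, 90.8 and 106 CPM against 95.6, 89.8 and 78.9 CPM. These groups overlapped and the log2 fold change was -0.18 ± 0.094, or -0.10 without replicate 3 of si-AC010789.1, while its relative GIT2, which overlaps TCHP on the other strand, gave -0.04 ± 0.069. The log2 ratio of GIT1 to GIT2 in CPM was 0.52 to 0.65 in siRNA-NC and 0.40 to 0.51 in si-AC010789.1, the second of the 3 ratios without overlap, with a change of -0.13 that stayed between -0.17 and -0.10 when any 1 library was left out.

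PXN, paxillin, stood at 223, 198 and 219 CPM in siRNA-NC and 158, 221 and 224 CPM in si-AC010789.1. Replicate 1 of the knockdown was the low library, and the log2 fold change was -0.08 ± 0.14. TGFB1I1, the paxillin relative Hic-5, gave -0.03 ± 0.10. BCAR1, p130Cas, gave -0.10 ± 0.098, and NEDD9, another member of the Cas family, -0.02 ± 0.079. CRK, an SH2 and SH3 adaptor that docks on them, had 148, 84.2 and 141 CPM against 157, 138 and 84.8 CPM. It had the widest spread of any member, a coefficient of variation within groups of 28.8%, from 1 low library in each group, whereas its relative CRKL differed by only 1.06 times between the highest and the lowest of all 6 libraries. Their log2 fold changes were 0.02 ± 0.29 and -0.00 ± 0.045. SORBS3, vinexin, which binds vinculin, gave 0.09 ± 0.072.

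The zyxin family, the other LIM proteins and the actin assembly factors were 10 genes. TES, testin, a LIM protein that binds zyxin and Ena/VASP partners, lies at chr7:116210493-116258783 (plus strand) and had the lowest p of all members. It stood at 102, 94.4 and 95.6 CPM in siRNA-NC and at 79.2, 79.9 and 79.1 CPM in si-AC010789.1. The knockdown libraries agreed within an SD of 0.421 CPM and lay below every control library, by 18.4% in the fit, a log2 fold change of -0.29 ± 0.054 (adjusted p = 0.0712 by edgeR's quasi-likelihood test). ZYX, zyxin (chr7:143381080-143391111, plus strand), had 137, 153 and 155 CPM in siRNA-NC and 95.9, 132 and 136 CPM in si-AC010789.1. Its groups were apart by less than 2 CPM, and the log2 fold change was -0.29 ± 0.14 (adjusted p = 0.343 by edgeR's quasi-likelihood test), or -0.15 without replicate 1 of si-AC010789.1. LPP, a zyxin relative, gave 0.14 ± 0.22 with overlapping groups.

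EVL, a member of the Ena/VASP family that lengthens actin filaments, was the one member with every knockdown library above every control library (chr14:99971449-100144236, plus strand). It stood at 19.1, 26.1 and 28.1 CPM in siRNA-NC and at 30.5, 33.0 and 28.7 CPM in si-AC010789.1. The log2 fold change of 0.33 ± 0.15 was the most positive of all members (adjusted p = 0.336 by edgeR's quasi-likelihood test), and it was 0.18 without replicate 1 of siRNA-NC, the lowest library. Its relatives VASP and ENAH gave -0.01 ± 0.069 and -0.08 ± 0.11, and the log2 ratio of EVL to VASP in CPM was -2.49 to -1.96 in siRNA-NC and -1.89 to -1.81 in si-AC010789.1, the third of the ratios without overlap. The change in this ratio was 0.36, and 0.22 without replicate 1 of siRNA-NC. The scaffolds PDLIM5 and PDLIM7, which join LIM domains to alpha-actinin, gave 0.06 ± 0.096 and 0.09 ± 0.085. LASP1, an actin-binding LIM and SH3 protein, gave 0.06 ± 0.046. CSRP1 had 185, 244 and 240 CPM against 211, 264 and 136 CPM, with replicate 3 of the knockdown lowest and a log2 fold change of -0.13 ± 0.24.

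Genes of the surrounding pathway were counted in the same fit, from lists that no member is in. Among 24 tested genes of other focal adhesion adaptors, 4 were higher and 4 lower at an unadjusted p under 0.05, which is 16.7% each way beside 8.25% and 8.91% of all genes, and 0 had an adjusted p under 0.05 by edgeR's quasi-likelihood test. Low p values in this list belonged to SHANK3, a scaffold, at a log2 fold change of 0.44 ± 0.095, TNS2, a tensin, at -0.39 ± 0.095 and FHL2, a LIM adaptor, at 0.31 ± 0.077. Among 42 tested genes of adhesion signalling and turnover, 12 were higher (28.6%) and 3 lower (7.14%) at that threshold, beside the same 8.25% and 8.91%. PAK1, a kinase activated by RAC1 and CDC42, was at -0.60 ± 0.11 with 17.8, 18.3 and 16.4 CPM against 10.4, 11.8 and 12.4 CPM (adjusted p = 0.0659 by edgeR's quasi-likelihood test). PTPN11, the phosphatase SHP2, was at 0.22 ± 0.044, ABL1, a tyrosine kinase that phosphorylates CRK, at -0.27 ± 0.06, and ELMO2, a partner of the exchange factor DOCK1, at -0.44 ± 0.098. RAC1 and CDC42, the substrates of beta-PIX, were at 0.19 ± 0.06 and 0.16 ± 0.043 while ARHGEF7 itself was at -0.17; both had an unadjusted p under 0.05, and their adjusted p values by edgeR's quasi-likelihood test were 0.187 and 0.15. Among 27 tested genes of actin and myosin, 3 were higher (11.1%) and 2 lower (7.41%). No test of these shares was made. Of these genes TPM2, a tropomyosin, was at 0.23 ± 0.06, MYLK, myosin light chain kinase, at -0.23 ± 0.073, TAGLN, transgelin, at 0.47 ± 0.18 and TPM4, a tropomyosin, at 0.73 ± 0.29, the latter with 434, 464 and 204 CPM in siRNA-NC and 621, 590 and 615 CPM in si-AC010789.1.

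The deposited table lists transcripts, so the members were also tested one transcript at a time. Of 194 member transcripts that passed the filter, 0 had an adjusted p under 0.05 by edgeR's quasi-likelihood test, with 0.0135% of the 44297 transcripts tested called, and 8 (4.12%) had an unadjusted p under 0.05 beside 5.74% of all. The libraries of one group lay wholly on one side in 17 of them (8.76%), beside 14.0% of all transcripts. At the study's criteria there were 4 member transcripts (2.06%), beside 3.5% of all. Those 4 belong to 3 genes. PTK2-202, a coding transcript of FAK, had control counts of 13, 184 and 54 and knockdown counts of 0, 1 and 0. Its summed counts of 251 and 1 gave, after scaling by library totals, a ratio of 240 to 1 with an exact 95% counting interval of 42.6 to 9503, which covers counting error only. PTK2-206, with a much shorter coding part, had 34, 64 and 65 counts against 122, 85 and 162. ACTN1-205 had control counts of 32, 709 and 131 and knockdown counts of 12, 24 and 20, and ILK-212 had 14, 18 and 22 against 7, 6 and 8. All 4 are minor forms: PTK2-202 held at most 17.6% of the counts of PTK2, PTK2-206 at most 11.7%, ACTN1-205 at most 13.1% of those of ACTN1, and ILK-212 at most 1.64% of those of ILK. DESeq2 called 2 of the 179 member transcripts with an adjusted p, PTK2-202 (adjusted p = 0.000666) and ACTN1-205 (adjusted p = 0.0268), with 1.55% of all transcripts called.

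Counts also moved between transcripts of one gene from library to library. In 14 of the 36 members with at least 10 CPM and more than 1 transcript, which is 38.9%, a transcript's share of the gene's counts spanned more than 50 percentage points over the 6 libraries, beside 23.8% of the 9074 genes of that kind. The median over genes of the largest span was 37.8 points for the members and 26.6 points for all such genes. Of 27 member transcripts with such a span, 1 (3.7%) had groups that did not overlap, EVL-203, beside 368 of the 3633 transcripts with such a span in all genes of that kind (10.1%). The median coefficient of variation within groups was 7.41% for the members' gene sums (10.4% over all genes) and 44.8% for single member transcripts (40.2% over all transcripts). Members have different numbers of transcripts from other genes and no test of this difference was made.

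Several of the spans separate transcripts that differ by a known coding exon, and these exons are shown because the counts assigned to the gene's transcripts split on them. Capitals mark the exon, lower case the 10 bases of the neighbouring exons on each side in the transcript named, all 5′ to 3′ on the gene's strand from GENCODE v29 on GRCh38. The exon of VCL that makes metavinculin, the muscle-rich long form, has 204 bases at chr10:74111909-74112112 (plus strand) and is in VCL-201 and not in VCL-202. The exon of GIT1 has 27 bases at chr17:29578962-29578988 (minus strand) and is in GIT1-203 and not in GIT1-201. The exon of GIT2 has 90 bases at chr12:109945260-109945349 (minus strand) and is in GIT2-203 and not in GIT2-204. ACTN1 has a 66-base exon at chr14:68878458-68878523, in ACTN1-203 and not in ACTN1-201, and an 81-base exon at chr14:68878989-68879069, in ACTN1-201 and not in ACTN1-204 (both minus strand), which encode part of the calcium-binding EF hands. Each length is a multiple of 3, so the exons hold 68, 9, 30, 22 and 27 codons and keep the reading frame. ACTN1-203 has both ACTN1 exons, ACTN1-201 only the 81-base one and ACTN1-204 only the 66-base one. Their coding lengths are 2742, 2676 and 2661 bases, so ACTN1-201 and ACTN1-204 differ in both exons and the 2 ACTN1 exons are not independent.
VCL: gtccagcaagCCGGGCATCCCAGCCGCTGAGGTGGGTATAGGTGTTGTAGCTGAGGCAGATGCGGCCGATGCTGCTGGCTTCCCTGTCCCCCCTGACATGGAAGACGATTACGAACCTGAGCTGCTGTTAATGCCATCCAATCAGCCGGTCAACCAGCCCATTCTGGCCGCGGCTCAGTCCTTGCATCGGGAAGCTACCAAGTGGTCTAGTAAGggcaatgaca
GIT1: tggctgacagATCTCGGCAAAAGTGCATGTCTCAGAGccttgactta
GIT2: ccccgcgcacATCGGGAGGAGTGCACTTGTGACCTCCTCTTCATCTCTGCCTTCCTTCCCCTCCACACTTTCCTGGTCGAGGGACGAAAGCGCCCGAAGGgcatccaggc
ACTN1, 66 bases: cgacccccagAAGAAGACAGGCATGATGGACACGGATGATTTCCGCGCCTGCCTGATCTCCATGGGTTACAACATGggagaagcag
ACTN1, 81 bases: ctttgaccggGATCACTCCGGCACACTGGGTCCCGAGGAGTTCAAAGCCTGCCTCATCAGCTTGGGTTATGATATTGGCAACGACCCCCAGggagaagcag

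The VCL transcripts give the sharpest case, because the gene sum of VCL varied by only 1.66% within groups. VCL-201, with the exon, had control counts of 6138, 10139 and 8310 and knockdown counts of 7815, 9846 and 17. VCL-202, without it, had 5157, 3490 and 4793 counts against 3237, 2220 and 11650. Transcripts with the exon were thus assigned 51.3%, 72.1% and 59.0% of VCL counts in siRNA-NC, against 67.6%, 79.0% and 0.143% in si-AC010789.1. In replicate 3 of the knockdown nearly all counts were assigned to the form without it. Reads over the exon itself were not counted. How the counting divided reads that several transcripts share was also not given. The shares of this and the other exons are therefore of assigned counts and do not measure use of an exon. In GIT1 the transcripts with the 27-base exon held 5.74%, 0.498% and 79.0% of counts in siRNA-NC, against 87.6%, 14.1% and 78.5% in si-AC010789.1. In GIT2 the transcripts with the 90-base exon held 82.7%, 16.4% and 14.8% in siRNA-NC, against 18.6%, 82.1% and 85.8% in si-AC010789.1. Both genes therefore had libraries of each group at either extreme, and the high libraries of GIT1 were not those of GIT2, replicate 3 of the knockdown excepted.

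In ACTN1 the 66-base exon was in transcripts with 0.761%, 77.1% and 60.9% of counts in siRNA-NC, against 74.3%, 0.479% and 76.5% in si-AC010789.1, again without a split by group. The 81-base exon was in transcripts with 81.5%, 80.5% and 28.8% of counts in siRNA-NC, against 89.1%, 91.8% and 90.4% in si-AC010789.1. Of the 5 exons this was the one whose groups did not overlap. The means were 63.6 ± 30.1% and 90.4 ± 1.33% (SD, n = 3), with the control mean lowered by replicate 3. These are shares of all ACTN1 counts, so transcripts that do not reach the exon lower them. ACTN1-204 and ACTN1-205, with the 66-base exon alone, held 0% and 0.761% in control replicate 1. ACTN1-205 held 0.276% to 0.479% in the knockdown libraries. ACTN1-211 held 9.11% in that control library and 4.73% to 6.36% in the knockdown. ACTN1-220, outside the exon, held 2.69% and 0.399% to 1.04%. The separation therefore does not show a difference in exon use. EVL-203, the transcript of EVL with separate groups, had 0, 54 and 45 counts against 107, 216 and 102, which is 0%, 15.6% and 12.0% of EVL counts against 30.7%, 52.3% and 28.8%. EVL-202, the longer coding form, held 56.0%, 51.4% and 60.7% of EVL counts in siRNA-NC, against 31.2%, 13.1% and 34.7% in si-AC010789.1. On the length-scaled level the span of EVL-203 over the libraries was 26.8 points in place of 52.3. Neither EVL transcript had an unadjusted p under 0.05.

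The transcripts with the largest spans by the naming rule were GIT1-203 (87.0 points), CSRP1-201 (82.9 points), ACTN1-201 (82.1 points), GIT1-201 (81.5 points) and LASP1-201 (81.0 points). CSRP1-201 had control counts of 1742, 17 and 2016 and knockdown counts of 54, 63 and 1309. In replicate 2 of siRNA-NC most CSRP1 counts stood instead on CSRP1-211, a retained intron form (57.5%), in replicate 1 of si-AC010789.1 on CSRP1-215, another retained intron form (62.9%), and in replicate 2 on CSRP1-216 (57.0%). LASP1-201 had 954, 1140 and 2496 counts against 1811, 194 and 768, and LASP1-204, with the same coding length, 1160, 1265 and 0 against 0, 1739 and 1513. CRK, the member with the widest gene sum, split between CRK-201, with the longer coding part, at 35.4%, 40.9% and 8.64% of counts in siRNA-NC, against 33.8%, 8.46% and 10.1% in si-AC010789.1, and CRK-202. In none of GIT1, CSRP1, LASP1 and CRK did these shares follow the groups, and how the counting divided reads that several transcripts share was not given in the sources used here.

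**Figure D3:**
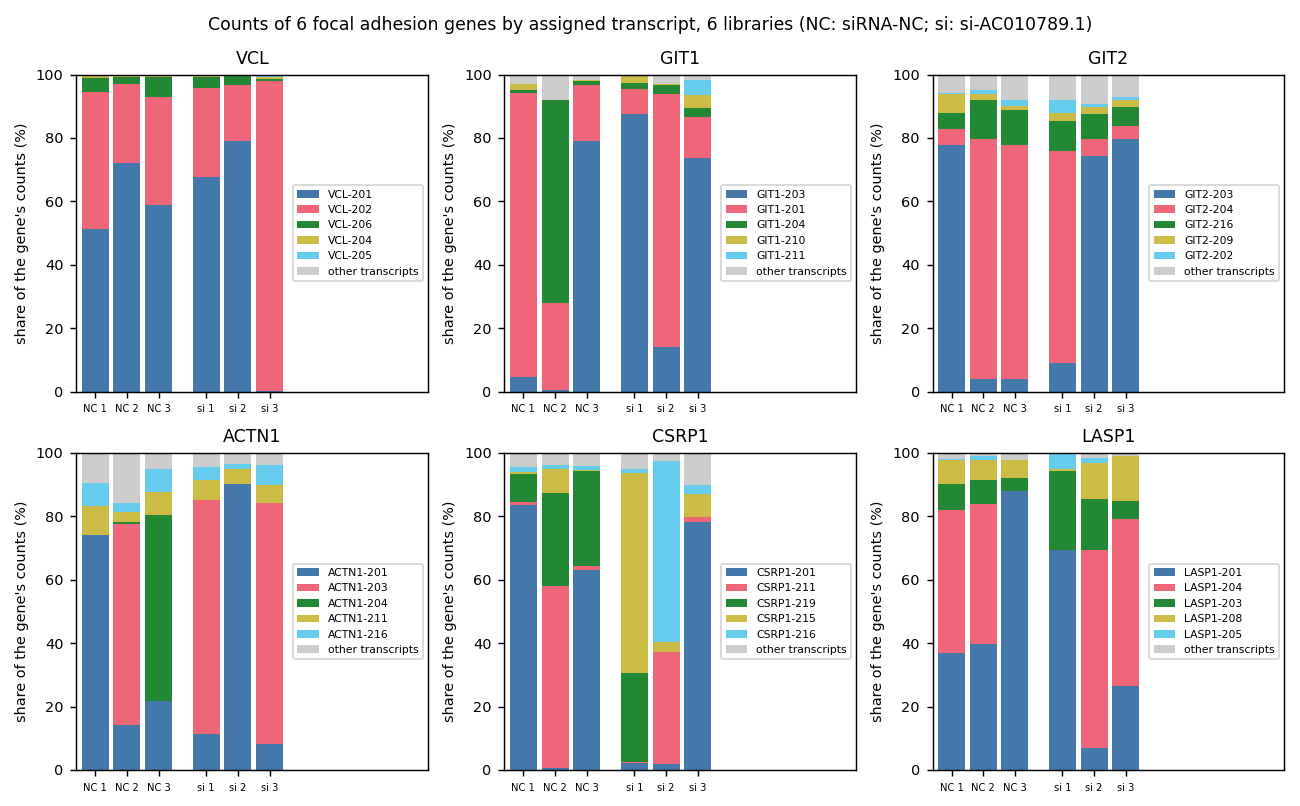
Share of each gene's counts (%) by assigned transcript in VCL, GIT1, GIT2, ACTN1, CSRP1 and LASP1, 1 bar per library (NC, siRNA-NC; si, si-AC010789.1), the 5 largest transcripts in colour and the rest in grey. The leading transcript changes between libraries of one group, as in VCL, where VCL-201 holds 0.143% in si-AC010789.1 replicate 3.

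**Figure D4:**
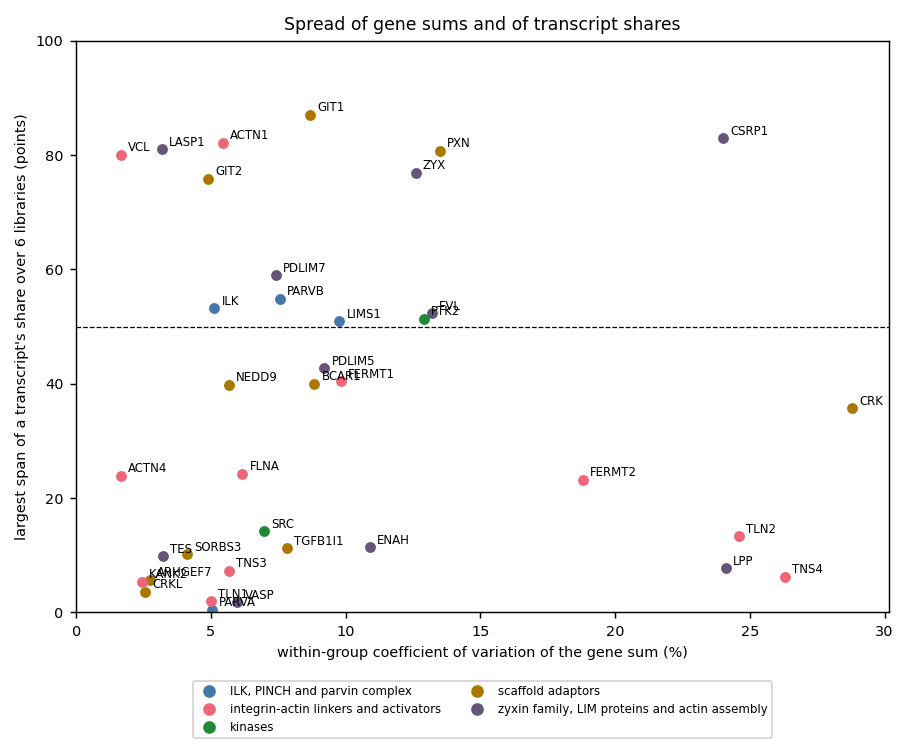
For each focal adhesion gene, the coefficient of variation of its summed CPM within groups (%, horizontal) against the largest span of a transcript's share over the 6 libraries (percentage points, vertical); the dashed line marks 50 points and colours mark the role groups. VCL pairs a variation of 1.66% with a span of 80.1 points, whereas TNS4 pairs 26.3% with 6.25 points.

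The study also worked with miR-432-3p, a microRNA named in its title, so matches to its seed were listed among the members. The mature sequence from RefSeq (chr14:100884544-100884564, plus strand, GRCh38.p14) is shown with the seed, bases 2 to 8, in capitals.
hsa-miR-432-3p: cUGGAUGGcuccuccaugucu
The letters CCATCCA (pairing with bases 2 to 8) and CATCCAA (bases 2 to 7 and an A) were searched on the transcript strand of annotated 3′ UTRs; one site can hold both when they overlap. A match was found in 17 of 37 members (45.9%) and in 22.6% of the 12359 tested genes with such a UTR, or, in transcripts of the protein-coding class alone, in 13 members (35.1%) and 18.6% of genes. The median length of the longest annotated 3′ UTR was 2673 bases in the members and 1566 bases in those genes, and longer UTRs hold more matches. Of the 6 members with an unadjusted p under 0.05 for the gene, ACTN4 alone had a match, and its pair of sites is shown with the match in capitals.
ACTN4, chr19:38730872-38730878: ggtggccacctCCATCCActaaggaagag
ACTN4, chr19:38730999-38731005: ccccctcacccCCATCCAggtgctggctg
The 17 members with a match, among them PXN, ENAH, CSRP1, LASP1, LPP, SRC and PTK2, had a median log2 fold change of -0.018, and 9 of them were below 0. The members without one had a median of -0.0045. Over all such genes the medians were -0.0036 with a match and -0.00053 without, and 1419 of the 2795 genes with a match were below 0. In BCAR1, ILK, LIMS1, NEDD9 and PDLIM5 the only transcript with a match held 63, 23, 136, 80 and 21 counts over the 6 libraries. Each of these is less than the gene had in any single library, so most of the gene's counts lay on transcripts without a match. A match is a run of letters and does not show binding.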

How the data were processed

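Total RNA of HCT116 cells was made into paired-end TruSeq libraries and sequenced on an Illumina NovaSeq by the authors, whose processing notes name CASAVA 1.8 and TopHat2 2.0.6 and the builds GRCh38 and mm10. The deposited values were raw read counts per Ensembl transcript, and the counting program was not given in the sources used here. Transcript counts were added up for each gene of GENCODE v29 (98803 of 98886 transcripts matched, 99.907% to 99.941% of counts).

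Genes and transcripts were tested in all 6 libraries with edgeR 4.0.16 (R 4.3.3): filterByExpr (minimum count 10, total 15), TMM factors, quasi-likelihood fit and Benjamini-Hochberg adjustment over all 13764 genes or 44297 transcripts; SE is the log2 fold change over the root of F. The scripts were tested on simulated data. CPM are TMM-scaled. Total counts per library limit precision as given in the report. Alternatives were DESeq2 1.42.0, upper-quartile factors, 2 other filters, a replicate block and leaving out each library. Residuals of control and knockdown libraries with the same replicate number correlated at 0.09, 0.0 and 0.0, and those with different numbers at -0.08 to 0.08. With 3 libraries a group these values cannot decide whether the libraries were paired. The study's Cuffdiff needs alignments and was not run.

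The members and gene lists were chosen with earlier results of these data known. Library values are given for members with an unadjusted p under 0.05, the 3 largest differences each way and the 5 highest levels per length, and for others chosen after their values were seen. Transcripts are named at the study's criteria or among the 5 largest share spans in genes of at least 10 CPM, as are up to 4 genes of lowest p per list, of which 1 is not reported here; the exon pairs, the paralogue ratios, RAC1, CDC42, EVL-202, CRK and VCL transcripts were added after values were seen. Sequences came from GENCODE v29 transcripts and a RefSeq table.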

Additional observations from a re-analysis of the deposited data

How the results depend on the processing

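By DESeq2 2 members and 2 member transcripts passed an adjusted p of 0.05. Member transcripts at the study's criteria numbered 20 without a filter and 9 with the replicate block, and 8 to 11 when 1 library was left out; the cause was not tested. The block gave 5 members with an unadjusted p under 0.05 in place of 6, and 0 with an adjusted p under 0.05. Leaving out 1 library gave 3 to 6 members with an unadjusted p under 0.05 (3 without si-AC010789.1 replicate 2) and a median log2 fold change of -0.049 to 0.0088. The direction of 21 of 37 genes held under all 11 alternatives, those of TES, FERMT1, ARHGEF7, ACTN4, VCL and KANK2 included. Reversed log2 fold changes were CRKL 0.00044 by DESeq2, 0.014 with upper-quartile factors and 0.0001 with a filter on a mean of 1 CPM, VASP 0.008 with upper-quartile factors, and ACTN1 -0.0077 without a filter. Leaving out 1 library reversed 16 genes at least once, with ranges from -0.046 to 0.036 for ACTN1, -0.0052 to 0.16 for PDLIM5, -0.095 to 0.26 for TLN2, -0.20 to 0.24 for CRK, -0.079 to 0.011 for FLNA, -0.033 to 0.12 for LIMS1, -0.068 to 0.022 for NEDD9, -0.062 to 0.034 for VASP, -0.015 to 0.019 for CRKL, -0.10 to 0.024 for TGFB1I1, -0.18 to 0.23 for TNS4, -0.065 to 0.34 for LPP, -0.17 to 0.063 for PXN, -0.16 to 0.042 for ENAH, -0.36 to 0.09 for CSRP1 and -0.077 to 0.0036 for GIT2. Shares of the length-scaled level in place of counts left the span of VCL-201 at 77.5 points and that of GIT1-203 at 83.9 points. Leaving out libraries in the ratios of related members was chosen after seeing the data. With 3 libraries a group, the common spread (biological coefficient of variation 0.17 for genes and 0.698 for transcripts) limits what single members and transcripts can show.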
